A study of Homo sapiens with 12 samples.

Results

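The genes described here are 43 of the 25369 rows in each of 2 deposited tables. They are genes of sterol and fatty acid synthesis, the SREBP regulators that drive these, and the LXR receptor genes with some of their targets. They were chosen by gene symbol, from the known pathways, with earlier results of these data known. All 43 were found in both tables. RNA was sequenced from 2 human lines of diffuse large B cell lymphoma: TMD8, labelled as activated B cell-like (ABC), and OCI-Ly7, labelled as germinal centre B cell-like (GCB). In every library the cells carried a doxycycline-inducible single guide RNA against PRMT5, the enzyme that places symmetric dimethyl marks on arginine, and were grown in RPMI1640 with fetal bovine serum. The groups were TMD8 cells with 20 ng/ml doxycycline for 0 days, for 3 days and for 6 days, and OCI-Ly7 cells with the same doses and days. Each of the 6 groups held 2 libraries. No library of cells with a control guide and doxycycline was used here, so the guide, the drug and the time in culture cannot be told apart. Whether a line was 1 clone, and how the nuclease was expressed, was not stated in the labels.

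Cells make cholesterol from acetyl-CoA through the mevalonate pathway, which leads by way of isoprenoids and squalene to lanosterol and then, by demethylation and reduction, to cholesterol. Fatty acids are built from the same acetyl-CoA and are then elongated, desaturated and activated. SREBF2 and SREBF1 encode the transcription factors SREBP-2 and SREBP-1, which are held in the endoplasmic reticulum with the escort protein SCAP by the INSIG proteins when sterols are plentiful, and are released to switch on these genes when sterols are short. The LXR receptors, encoded by NR1H2 and NR1H3, respond to oxysterols and switch on genes of cholesterol export, so the LXR targets ABCA1, ABCG1 and MYLIP usually move against the SREBP-2 targets.

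At day 6 many synthesis genes were lower in both lines. Of the 38 members tested in TMD8, 33 fell and 0 rose at day 6 against day 0, where 51.7% of all genes tested fell and 3.89% rose. Of these 33, 26 also fell once the libraries had been brought to a common median gene (median-ratio scaling, with the geometric mean of a gene over the line as the standard), where 13.5% of all genes fell. In OCI-Ly7 16 of 38 tested members fell at day 6, where 9.39% of all genes fell, and 12 of these fell under both scalings, where 8.05% of all genes fell after scaling. ABCG1, LPIN1 and ACSL1 rose in OCI-Ly7 under both, where 1.98% of all genes rose as given and 6.71% after scaling. More of all genes were called lower in TMD8 than in OCI-Ly7, so the larger count of members there is not by itself a result about them. MVD, which makes isopentenyl diphosphate, had the largest change of any tested member in TMD8 and none past the threshold in OCI-Ly7, and that difference between the lines passed its own test. These calls come from limma on log2(FPKM + 1), at an adjusted p below 0.05 over all genes tested. In bulk samples such as these, fewer cells of a type and less RNA per cell cannot be told apart.

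**Figure D1:**
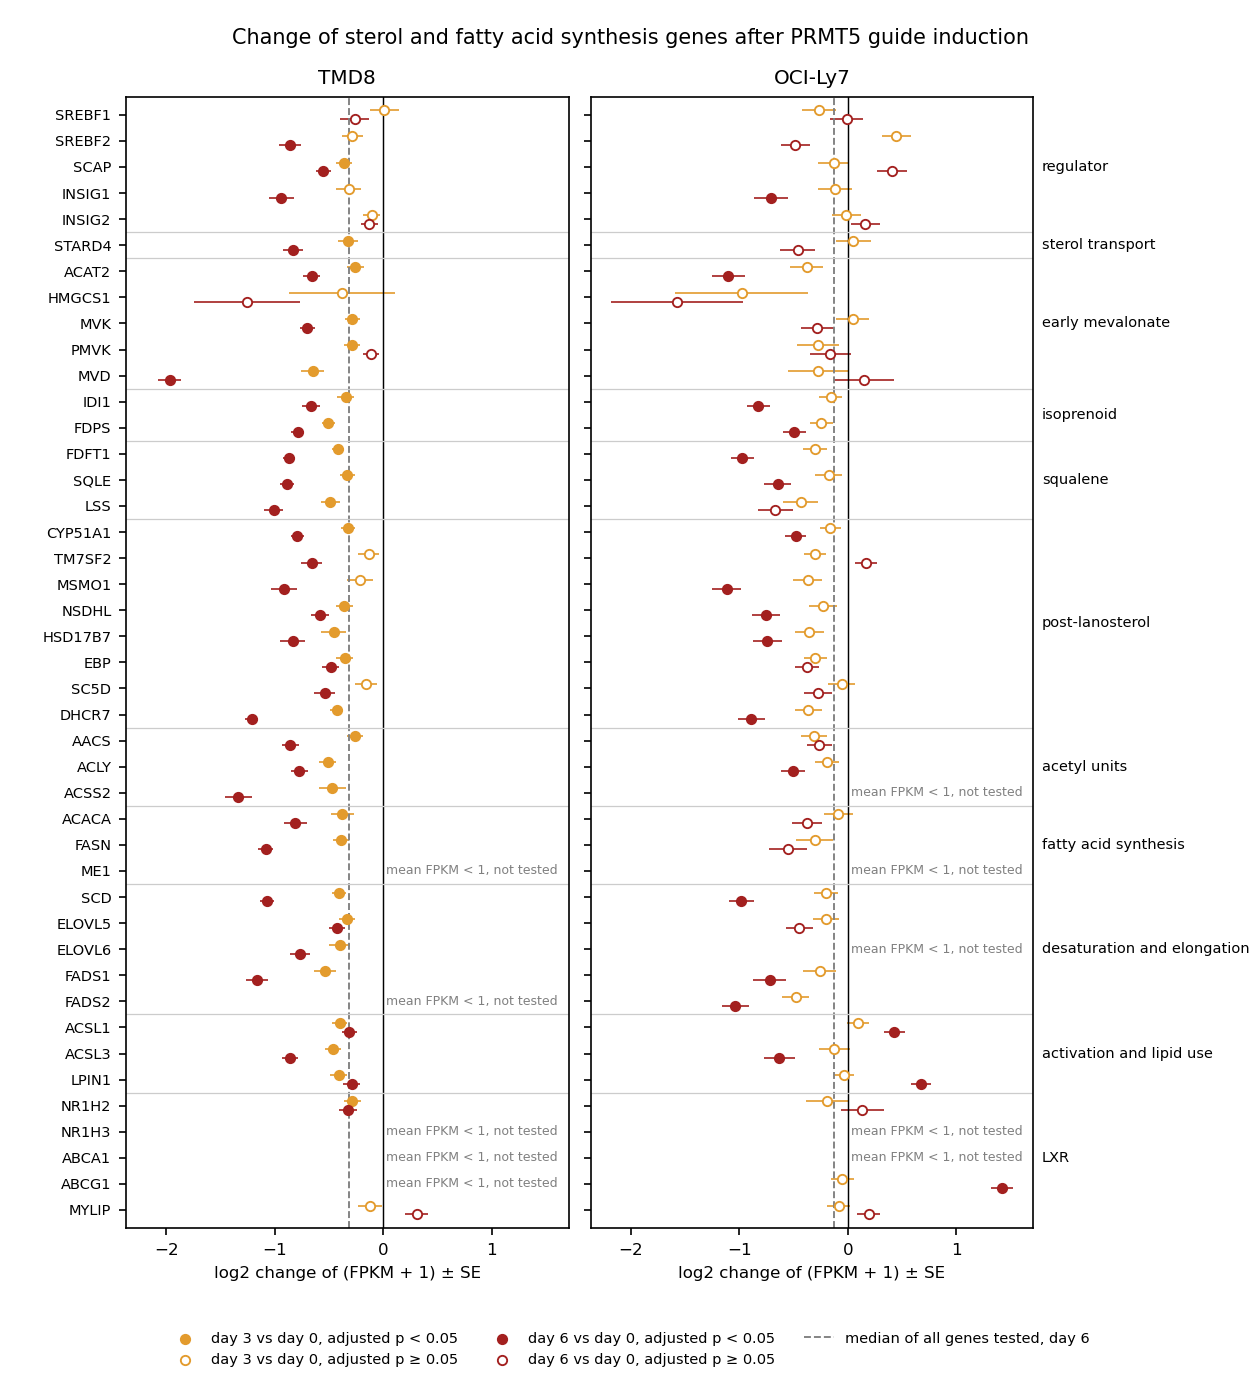
Log2 change of (FPKM + 1) for each of the 43 members in pathway order, with its standard error, at day 3 (orange) and day 6 (red) against day 0, in TMD8 (left) and OCI-Ly7 (right); filled points have an adjusted p below 0.05. In TMD8 the red points lie left of the dashed median of all genes for most synthesis enzymes, with MVD at -1.97; in OCI-Ly7 ABCG1 lies at 1.42.

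The tables were checked before the members were read. FPKM (a level normalised for transcript length and library size) summed to between 397477 and 467844 per library; total read counts were not used here. The targeted gene, PRMT5, read 64.8 and 60.5 FPKM at day 0, 41.3 and 42.0 at day 3, then 49.6 and 54.7 at day 6 in TMD8. The OCI-Ly7 values were 37.9 and 46.9, then 29.3 and 32.1, then 21.0 and 19.2 FPKM on the same days. Its day 6 change was -0.26 in TMD8 (limma, adjusted p = 0.0262) but 0.10 after median-ratio scaling (adjusted p = 0.201), and -1.04 in OCI-Ly7 (adjusted p = 0.0345; -0.89 after scaling). A guide cut need not lower the transcript, so these values check the labels only in part. The 6 B cell markers summed to 654 and 641 FPKM at day 0 in TMD8, 502 and 532 at day 3, then 472 and 495 at day 6, lower on the later days as the members were, and their part in the members' changes was not tested. In OCI-Ly7 these markers summed to 1029 and 1246 FPKM at day 0, 837 and 755 at day 3, then 1019 and 978 at day 6, lowest at day 3, whereas the summed sterol enzymes were lowest at day 6; their part there was not tested either. Of 5 markers of T and NK cells, CD3D, CD3E and CD2 were listed at 0 in all 12 libraries. CD8A read 0.29 to 0.77 FPKM over the libraries, and NKG7 was listed at 0 in TMD8 and read at most 0.33 in OCI-Ly7. The markers of the subtypes did not all follow the labels, on tables that were made separately. Of 5 activated B cell markers, IRF4 (244 to 461 FPKM in TMD8, 65.4 to 88.9 in OCI-Ly7), CCND2, TNFRSF13B and ENTPD1 were higher in every TMD8 library, but FOXP1 was lower there (4.09 to 7.05 FPKM in TMD8, 11.8 to 22.1 in OCI-Ly7). Of 5 germinal centre markers, MME (at or near 0 in TMD8), MYBL1 and BCL6 were lower in every TMD8 library, but SERPINA9 and LMO2 went against the labels. SERPINA9 read 4.31 to 12.9 FPKM in TMD8 and was listed at 0 in OCI-Ly7, and LMO2 read 17.1 to 40.02 FPKM in TMD8 and at most 0.14 in OCI-Ly7. EPCAM (3.90 to 5.91 FPKM) and COL1A1 (3.43 to 5.46 FPKM), markers of epithelial and stromal cells, were the 2 of 5 such markers that reached 1 FPKM in OCI-Ly7, where the list summed to between 9.71 and 10.9 FPKM over the days; their part was not tested.

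Since 51.7% of the genes tested were called lower at day 6 in TMD8 as given, counts are given under both scalings. The 45S pre-ribosomal RNA row read 5222 and 7950 FPKM at day 0 in TMD8, 20070 and 20450 at day 3, then 20280 and 17580 at day 6. Levels in OCI-Ly7 were 11160 and 10370, then 14280 and 20540, then 16130 and 20180 FPKM. The median gene tested changed by -0.27 at day 3 and -0.31 at day 6 in TMD8, and by -0.12 and -0.13 in OCI-Ly7. The part of this row in the members' changes was not tested. Median-ratio scaling sets the median gene near 0 by its construction.

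Against that background the members stood lower in TMD8 at day 6. The 33 members lower of 38 tested (86.8%) compare with 51.7% of all genes tested (3.89% were higher), and the median member changed by -0.79. After median-ratio scaling 26 members were lower, against 13.5% of all genes, and MYLIP alone was higher, against 15.4%. The median member then changed by -0.46, with the median of all genes at 0. At day 3 the reading was different. As given, 29 members were lower and 0 higher, where 41.5% of all genes were lower and 1.5% higher, but after median-ratio scaling 0 members passed in either direction, with 0.0765% of all genes lower and 0.143% higher. The day 3 calls also went to 0 when any 1 library of day 0 or day 3 was left out. A fall at day 3 beyond that of the other genes was therefore not detected in TMD8 at this replication, with 0 of 38 members past the threshold and 4 members at an unadjusted p below 0.05 after scaling (limma).

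Between days 3 and 6 in TMD8, 20 members fell and 0 rose, against 4.47% of all genes lower and 3.38% higher. After median-ratio scaling 17 fell and 0 rose, against 5.1% and 6.56%. DHCR7, MVD, SCD, FASN, SQLE and FDFT1 were among those lower under both scalings, with changes of -0.78, -1.32, -0.67, -0.70, -0.56 and -0.46 as given and -0.73, -1.27, -0.61, -0.64, -0.50 and -0.40 after scaling. The count rested on the 2 libraries of each day: it was 2 and 0 without the first and the second day 3 library, 7 and 9 without a day 0 library, and 12 and 11 when a library of day 6 was left out.

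In OCI-Ly7 at day 6 the 16 lower members (9.39% of all genes were lower) and 3 higher members (1.98% of all genes) came with a median change of -0.48, where the median gene changed by -0.13. After median-ratio scaling 12 were lower (8.05% of all genes) and 6 higher (6.71%), and the median was -0.34. At day 3 no member passed under either scaling in this line, where 0.0726% of all genes were lower and 0.0726% higher as given, and 0.0545% and 0.0635% after scaling; 11 members had an unadjusted p below 0.05 as given and 6 after scaling. Between days 3 and 6 only ABCG1 passed as given (1 higher and 0 lower, against 0.0999% and 0.118% of all genes), but after scaling 9 members were lower and 5 higher, against 4.52% and 4.23%. That call of ABCG1 was lost without the second day 3 library and without the first day 6 library, and at day 3 against day 0 1 member passed without the first day 0 library. The day 6 calls of OCI-Ly7 rested on every library of days 0 and 6: without the first day 0 library 1 member passed, and without the other day 0 library or either day 6 library 0 passed, while the change of FADS2, for example, stayed between -1.16 and -0.92.

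The members lower at day 6 in both lines were 15 of the 36 tested in both (41.7%). They were 48.4% of the 31 lower in TMD8 and 100% of the 15 lower in OCI-Ly7. Over all genes, 5.19% of the 9688 tested in both were lower in both, which were 9.93% of those lower in TMD8 and 49.8% of those lower in OCI-Ly7. After median-ratio scaling there were 11, or 30.6% of the 36, which were 45.8% of the 24 lower in TMD8 and 100% of the 11 lower in OCI-Ly7. The genes lower in both lines were then 0.754% of all genes tested in both, 5.74% of those lower in TMD8 and 8.43% of those lower in OCI-Ly7. The 11 were ACAT2, IDI1, FDPS, FDFT1, SQLE, CYP51A1, MSMO1, NSDHL, DHCR7, ACLY and SCD. Of these, 9 make sterols, ACLY makes the cytosolic acetyl-CoA that both pathways use, and SCD puts the double bond into stearate and palmitate.

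The summed level of the 18 sterol enzymes, from ACAT2 to DHCR7, shows the size of the change in each library. In TMD8 it was 1032 and 1002 FPKM at day 0, 776 and 777 at day 3, then 575 and 584 at day 6. OCI-Ly7 libraries read 477 and 502, then 425 and 383, then 349 and 308 FPKM. The days did not overlap in either line, and the untreated TMD8 libraries stood above all others. Of the 14 fatty acid genes, from AACS to LPIN1, the sum in TMD8 was 524 and 489 FPKM at day 0, 376 and 368 at day 3, then 277 and 282 at day 6. The same days in OCI-Ly7 gave 183 and 203, then 178 and 160, then 148 and 145 FPKM, again lowest at day 6. By gene, the median sterol enzyme stood at 57.3% of its day 0 mean at day 6 in TMD8 and at 59.9% in OCI-Ly7, and the median fatty acid gene at 51.4% and 69.8%.

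The regulators came first in the pathway and did not all move alike. SREBF2, which encodes SREBP-2, the main factor of the sterol genes, read 48.7 and 43.8 FPKM at day 0 in TMD8, 36.3 and 39.3 at day 3, then 23.2 and 27.1 at day 6. Each day lay below the one before it in both libraries. The day 6 change was -0.86 ± 0.10 (SE; limma, adjusted p = 0.00253) and -0.50 after median-ratio scaling (adjusted p = 0.0111). In OCI-Ly7 SREBF2 read 9.32 and 10.9 FPKM at day 0, 15.2 and 13.1 at day 3, then 7.54 and 6.39 at day 6, so that it was highest at day 3. Its day 6 change there was -0.48 ± 0.14 (adjusted p = 0.0718; -0.35 and 0.0797 after scaling), and the fall of -0.93 between days 3 and 6 passed only after scaling (adjusted p = 0.0798 as given and 0.0332 after scaling).

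SREBF1, which encodes SREBP-1, the factor more tied to fatty acid genes, did not pass in either line. In TMD8 it read 10.8 and 9.51 FPKM at day 0, 9.92 and 10.5 at day 3, then 9.53 and 7.14 at day 6. On those days OCI-Ly7 read 6.23 and 6.71, then 5.91 and 4.58, then 7.21 and 5.68 FPKM. Its day 6 changes, -0.26 ± 0.14 for TMD8 and -0.012 ± 0.16 for OCI-Ly7, had the opposite sign after median-ratio scaling in each (0.066 and 0.12). The tables give the gene, not its SREBP-1a and SREBP-1c transcripts.

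SCAP, the escort that carries SREBPs to the Golgi apparatus, had day 6 changes of opposite sign in the 2 lines. It read 8.67 and 9.24 FPKM at day 6 in TMD8, against 13.6 and 13.6 at day 0, a change of -0.55 (limma, adjusted p = 0.00308; -0.22 and 0.0402 after scaling). The OCI-Ly7 libraries gave 18.2 and 18.7 FPKM at day 6, against 13.6 and 13.7 at day 0, a change of 0.41 (adjusted p = 0.105; 0.55 and 0.0312 after scaling). The 2 lines started from nearly the same level and did not overlap at day 6. The difference of the changes, TMD8 minus OCI-Ly7, was -0.96 ± 0.16 (limma over the 12 libraries, adjusted p = 0.00586; -0.77 after scaling).

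INSIG1, which retains SCAP when sterols are plentiful and is itself a target of SREBPs, read 59.9 and 61.8 FPKM at day 0 in TMD8, 49.4 and 47.9 at day 3, then 35.4 and 27.6 at day 6. Its day 6 change was -0.94 ± 0.11 (limma, adjusted p = 0.00278; -0.58 and 0.0382 after scaling). In OCI-Ly7 INSIG1 read 14.8 and 17.4 FPKM at day 0, 14.6 and 14.8 at day 3, then 10.9 and 8.17 at day 6, a day 6 change of -0.71 (adjusted p = 0.046; -0.56 and 0.0597 after scaling). It was lowest at day 6 in both lines. INSIG2, its paralogue that does not depend on SREBPs in the same way, stayed between 7.48 and 8.88 FPKM in TMD8 and between 6.41 and 8.86 in OCI-Ly7. Its day 6 changes of -0.13 in TMD8 and 0.16 in OCI-Ly7 did not pass (0.20 and 0.30 after scaling, adjusted p = 0.0504 and 0.0944). STARD4, which moves sterol between membranes, fell in TMD8 by 0.83 (adjusted p = 0.00242; after scaling the change was -0.49), and in OCI-Ly7 its change was -0.46 (adjusted p = 0.114; -0.35 and 0.184 after scaling).

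**Figure D2:**
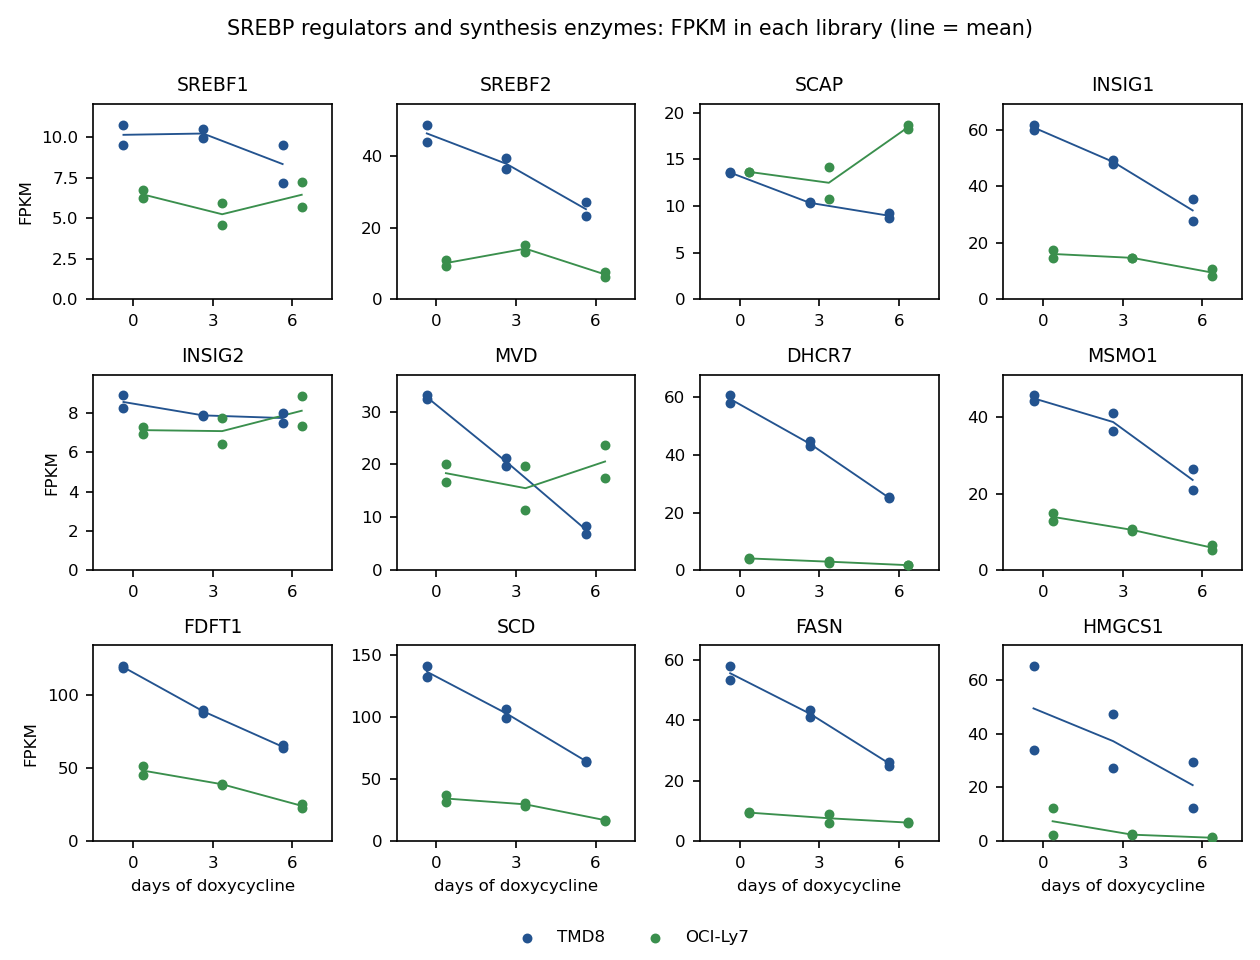
FPKM (linear axis) in each library against days of doxycycline for 5 regulators and 7 enzymes, TMD8 in blue and OCI-Ly7 in green; points are libraries and lines join the means of 2 libraries. In TMD8 MVD reaches 8.45 and 6.86 FPKM at day 6, and for SCAP and MVD the lines of the 2 cell lines cross or part; the 2 libraries of a day lie far apart for HMGCS1.

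Since these genes share SREBP as a regulator, the promoters of a few members are shown. They were picked for matches to the motifs below, so they are not a typical sample of the members. Where a gene has several starts, the first window with its match is printed. Windows of 250 bases before to 50 bases after the annotated start were taken from RefSeq on GRCh38.p14, which held 38 of the 43 members. Printed 5′ to 3′ on the strand of the gene are the 250 bases before the start of SREBF2 (chr22:41832855-41833104, plus strand), INSIG1 (chr7:155297628-155297877, plus strand), MVD (chr16:88663092-88663341, minus strand) and ACSL1 (chr4:184805554-184805803, minus strand, 1 of its annotated starts). Capitals mark matches on either strand to the sterol response element motif TCACNCCAC, the CCAAT box bound by NF-Y (ATTGG on the other strand) and the E-box CACGTG. In TMD8 SREBF2, INSIG1 and MVD fell at day 6 under both scalings and ACSL1 fell as given alone; in OCI-Ly7 ACSL1 rose under both, INSIG1 fell as given alone, and SREBF2 and MVD did not pass.
SREBF2: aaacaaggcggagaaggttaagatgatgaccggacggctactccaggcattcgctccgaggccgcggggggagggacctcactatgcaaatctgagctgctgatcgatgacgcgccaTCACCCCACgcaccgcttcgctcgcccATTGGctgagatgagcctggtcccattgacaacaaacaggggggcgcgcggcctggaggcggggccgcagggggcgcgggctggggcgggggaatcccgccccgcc
INSIG1: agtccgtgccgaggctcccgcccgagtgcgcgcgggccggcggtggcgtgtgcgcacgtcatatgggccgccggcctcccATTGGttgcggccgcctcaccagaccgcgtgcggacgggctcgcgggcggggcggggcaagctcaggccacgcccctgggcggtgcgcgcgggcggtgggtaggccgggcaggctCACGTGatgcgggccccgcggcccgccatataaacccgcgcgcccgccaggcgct
MVD: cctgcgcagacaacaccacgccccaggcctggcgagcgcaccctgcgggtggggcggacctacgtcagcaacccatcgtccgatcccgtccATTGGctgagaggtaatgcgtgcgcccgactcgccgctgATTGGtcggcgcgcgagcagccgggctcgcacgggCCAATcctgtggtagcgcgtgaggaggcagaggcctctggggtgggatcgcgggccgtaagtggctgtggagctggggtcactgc
ACSL1: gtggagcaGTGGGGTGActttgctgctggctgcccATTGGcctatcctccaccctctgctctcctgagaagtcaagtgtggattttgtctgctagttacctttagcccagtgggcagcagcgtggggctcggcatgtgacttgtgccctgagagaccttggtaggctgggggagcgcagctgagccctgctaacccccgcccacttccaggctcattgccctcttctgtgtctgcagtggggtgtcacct

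The SREBF2 window held the sterol element as TCACCCCAC, beginning 133 bases before the start, with an ATTGG 106 bases before it. The motif TCACNCCAC occurred in 2 of the 38 members (5.26%), SREBF2 and ACSL1, against 1.59% of genes tested in either line and 1.39% of all genes in the RefSeq table. CCAAT on either strand occurred in 26 members (68.4%), against 43.6% of genes tested and 39.7% of all. MVD held it at 3 places and both SREBF2 and INSIG1 held it. CACGTG occurred in 6 members (15.8%, against 13.3% and 8.77%), namely SCAP, INSIG1, LSS, SC5D, ELOVL5 and ABCA1. Matches are letters in a window and not binding sites, and looser forms of these motifs were not searched.

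The early mevalonate steps differed widely from one enzyme to the next. ACAT2, which joins acetyl-CoA units in the cytosol, read 33.2 and 36.4 FPKM at day 6 in TMD8, against 55.2 and 55.6 at day 0 (limma, -0.66, adjusted p = 0.00261; -0.30 after scaling). In OCI-Ly7 ACAT2 read 29.2 and 31.2 FPKM at day 0, 24.6 and 21.4 at day 3, then 15.5 and 11.8 at day 6. Its change there was -1.10 ± 0.15 (adjusted p = 0.0345; -0.96 and 0.0252 after scaling), one of the largest falls in that line. Exons of ACAT2 overlap genes on the other strand, among them SOD2-OT1 over 33.9% and SOD2 over 26.5% of its exonic bases in GENCODE v29, and without a stated strand setting their reads cannot be told apart.

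HMGCS1, which makes HMG-CoA, was not reproducible between libraries. It read 65.2 and 33.8 FPKM at day 0 in TMD8, 27.2 and 47.4 at day 3, then 12.2 and 29.5 at day 6. The OCI-Ly7 values were 2.31 and 12.5, then 2.30 and 2.49, then 1.36 and 1.14 FPKM. Neighbouring days overlapped in both lines except days 3 and 6 in OCI-Ly7, and the day 6 changes of -1.26 ± 0.49 and -1.57 ± 0.61 did not pass (limma, adjusted p = 0.0699 and 0.136; -0.91 and -1.46 after scaling, adjusted p = 0.209 and 0.163). The libraries of 1 day differed up to 5.42-fold for HMGCS1, whereas they differed at most 1.75-fold for any other tested member.

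MVK, the mevalonate kinase, fell in TMD8 by 0.70 (limma, adjusted p = 0.00191; after scaling the change was -0.35) and changed by -0.28 in OCI-Ly7 (adjusted p = 0.25; -0.16 and 0.433 after scaling). PMVK, the phosphomevalonate kinase that acts next, read 28.7 and 27.1 FPKM at day 6 in TMD8, against 31.0 and 29.4 at day 0. Its change of -0.11 in TMD8 did not pass and had the opposite sign after scaling (0.24, adjusted p = 0.0823), and its change of -0.16 in OCI-Ly7 did not pass either (-0.014 after scaling). MVD, the decarboxylase that follows PMVK, read 33.0 and 32.4 FPKM at day 0 in TMD8, 19.7 and 21.3 at day 3, then 8.45 and 6.86 at day 6.

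MVD at day 6 in TMD8 stood at 23.4% of its day 0 mean, the lowest percentage of the 38 members tested in that line. Its change was -1.97 ± 0.10 (limma, adjusted p = 0.001; -1.63 and 0.00342 after scaling), and it lay between -2.10 and -1.84 in the 6 fits that each left out 1 library. In OCI-Ly7 MVD read 20.1 and 16.6 FPKM at day 0, 19.7 and 11.3 at day 3, then 23.6 and 17.5 at day 6, and the days overlapped. The change there was 0.15 ± 0.28 (adjusted p = 0.738; 0.29 and 0.422 after scaling). The difference between the lines was -2.12 ± 0.33 (adjusted p = 0.00502; -1.92 and 0.0029 after scaling). Neighbouring steps in TMD8 thus ran from no call for PMVK to the largest fall for MVD.

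The isoprenoid steps, IDI1 and FDPS, fell in both lines under both scalings. Of all genes tested, 51.7% fell as given and 13.5% after scaling in TMD8, and 9.39% and 8.05% in OCI-Ly7. IDI1, the isomerase that makes dimethylallyl diphosphate, read 67.4 and 69.3 FPKM at day 6 in TMD8, against 107 and 112 at day 0 (limma, -0.67, adjusted p = 0.00278; -0.31 after scaling). Levels in OCI-Ly7 were 55.9 and 51.2 FPKM at day 0, 49.7 and 46.1 at day 3, then 31.5 and 28.2 at day 6, a change of -0.82 (adjusted p = 0.0345; -0.67 after scaling). FDPS, which makes farnesyl diphosphate for sterols and for protein prenylation, had the highest level of all members at day 0 in both lines, 182 and 188 FPKM in TMD8 and 139 and 146 in OCI-Ly7. It changed by -0.79 in TMD8 (adjusted p = 0.00146) and by -0.49 in OCI-Ly7 (adjusted p = 0.0457), and it was lower after scaling too (-0.43 and -0.34). FDPS has 8 annotated pseudogenes, and how reads were shared among them was not stated in the labels. Genes on the other strand overlap both members, IDI2-AS1 over 14.8% of the exonic bases of IDI1 and RUSC1-AS1 over 18.6% of those of FDPS. Without a stated strand setting their reads cannot be told apart.

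The 3 squalene steps all fell in TMD8 under both scalings, where 51.7% of all genes tested fell as given and 13.5% after scaling. FDFT1, the squalene synthase that commits farnesyl units to sterols, read 118 and 119 FPKM at day 0 in TMD8, 89.7 and 87.8 at day 3, then 63.4 and 65.6 at day 6. OCI-Ly7 libraries read 45.3 and 51.2, then 39.2 and 38.5, then 25.5 and 22.8 FPKM. The days of each line followed one another downwards without overlap, and the day 6 changes were -0.87 ± 0.06 in TMD8 (limma, adjusted p = 0.00136; -0.51 after scaling) and -0.97 ± 0.11 in OCI-Ly7 (adjusted p = 0.0345; -0.82 after scaling).

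SQLE, the squalene epoxidase, read 77.3 and 73.6 FPKM at day 0 in TMD8, 60.4 and 59.2 at day 3, then 38.8 and 42.0 at day 6, and changed by -0.89 (limma, adjusted p = 0.00146; -0.53 after scaling). The same days in OCI-Ly7 gave 23.4 and 24.0, then 21.8 and 19.9, then 16.4 and 13.4 FPKM, and changed by -0.65 (adjusted p = 0.0384; -0.50 after scaling). LSS, which folds the epoxide into lanosterol, read 34.9 and 33.1 FPKM at day 0 in TMD8, 22.4 and 25.6 at day 3, then 15.8 and 17.0 at day 6. It changed by -1.01 ± 0.09 (adjusted p = 0.00167; -0.66 after scaling). In OCI-Ly7 LSS was near the floor of the test, at 0.57 and 0.87 FPKM at day 6 against 1.52 and 1.94 at day 0, and its change of -0.67 did not pass (adjusted p = 0.053; -0.58 and 0.0745 after scaling). The sign of the difference between the lines for LSS turned with the pseudocount, from -0.34 at 1 to 0.12 at 0.1, and neither passed.

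All 8 post-lanosterol enzymes fell in TMD8 as given, where 51.7% of all genes tested fell, and 5 of them after median-ratio scaling, where 13.5% of all genes fell. In OCI-Ly7 5 of the 8 fell as given (9.39% of all genes) and 4 after scaling (8.05%), with TM7SF2 higher after scaling (6.71% of all genes were higher). DHCR7, which carries out a last reduction to cholesterol, read 60.6 and 58.1 FPKM at day 0 in TMD8, 42.99 and 44.8 at day 3, then 25.2 and 24.9 at day 6. On those days OCI-Ly7 read 4.02 and 4.18, then 3.32 and 2.63, then 1.84 and 1.68 FPKM. It was lowest at day 6 in both lines although the untreated levels of the lines differed 14.5-fold. The changes were -1.21 ± 0.06 in TMD8 (limma, adjusted p = 0.001; -0.86 after scaling) and -0.89 ± 0.12 in OCI-Ly7 (adjusted p = 0.0345; -0.77 after scaling).

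MSMO1, the methyl sterol oxidase that removes the methyl groups left after CYP51A1, read 44.2 and 45.6 FPKM at day 0 in TMD8, 41.1 and 36.3 at day 3, then 26.3 and 20.8 at day 6. The OCI-Ly7 libraries gave 12.9 and 15.1, then 10.8 and 10.3, then 6.58 and 5.24 FPKM. Both lines showed their lowest values at day 6, with changes of -0.91 ± 0.12 in TMD8 (limma, adjusted p = 0.00318; -0.56 after scaling) and -1.12 ± 0.14 in OCI-Ly7 (adjusted p = 0.0345; -0.98 after scaling). NSDHL, the dehydrogenase that works beside it, read 10.1 and 8.06 FPKM at day 6 in OCI-Ly7, against 14.9 and 16.9 at day 0, and changed by -0.75 (adjusted p = 0.0357; -0.61 after scaling); in TMD8 its change was -0.58 (adjusted p = 0.00346; -0.23 after scaling).

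CYP51A1, the lanosterol demethylase, changed by -0.79 in TMD8 and -0.48 in OCI-Ly7 (limma, adjusted p = 0.00151 and 0.0424) and was lower after scaling too (-0.44 and -0.34). A second annotated gene on the same strand, AC000120.2, covers 79.4% of its exonic bases, and 3 pseudogenes carry its name. HSD17B7 fell as given in both lines (-0.83 and -0.74, adjusted p = 0.0035 and 0.0361) but after scaling only in TMD8 (-0.51, adjusted p = 0.0197). EBP and SC5D, the isomerase and desaturase of the late steps, fell in TMD8 as given (-0.48 and -0.54, adjusted p = 0.00467 and 0.00666) and did not pass after scaling (-0.12 and -0.23) or in OCI-Ly7 (-0.38 and -0.27 as given, -0.23 and -0.16 after scaling).

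TM7SF2, a sterol reductase that acts early after lanosterol, also had changes of opposite sign. It read 9.67 and 9.68 FPKM at day 6 in TMD8, against 15.3 and 16.5 at day 0, and 17.9 and 17.3 FPKM at day 6 in OCI-Ly7, against 15.03 and 16.2 at day 0. The changes were -0.66 in TMD8 (limma, adjusted p = 0.00398; -0.32 and 0.0607 after scaling) and 0.17 in OCI-Ly7 (adjusted p = 0.294; 0.31 and 0.0435 after scaling). The difference between the lines, -0.82 ± 0.14, passed (adjusted p = 0.00591; -0.63 after scaling).

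The genes that supply acetyl units all fell in TMD8 under both scalings, against 51.7% of all genes tested as given and 13.5% after scaling. ACLY, which splits citrate, read 155 and 140 FPKM at day 0 in TMD8, 102 and 104 at day 3, then 82.1 and 90.3 at day 6, a change of -0.77 (limma, adjusted p = 0.00198; -0.41 after scaling). The OCI-Ly7 values were 60.7 and 67.7, then 59.1 and 53.0, then 46.5 and 43.03 FPKM, a change of -0.51 (adjusted p = 0.0457; -0.36 after scaling). Day 6 lay below day 0 in every library. ACSS2, which activates acetate, read 2.48 and 1.78 FPKM at day 6 in TMD8, against 6.66 and 7.03 at day 0. Its change of -1.33 ± 0.12 was the largest of a fatty acid gene (adjusted p = 0.00179; -1.04 after scaling), and in OCI-Ly7 it stayed under 1 FPKM in every library and was not tested.

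AACS, which activates acetoacetate, read 4.80 and 4.90 FPKM at day 6 in TMD8, against 9.49 and 9.67 at day 0, a change of -0.86 (limma, adjusted p = 0.00167; -0.54 after scaling). Levels in OCI-Ly7 were 15.4 and 15.2 FPKM at day 6, against 18.5 and 18.6 at day 0 (-0.26, adjusted p = 0.181; -0.12 and 0.3 after scaling). The lines differed in this change by -0.59 ± 0.13 (adjusted p = 0.015; -0.42 and 0.0103 after scaling), a call that 10 of the 12 fits without 1 library kept.

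Of the 2 tested enzymes that build the fatty acid chain, both fell in TMD8 and neither passed in OCI-Ly7. Among all genes tested, 51.7% fell as given and 13.5% after scaling in TMD8, and 9.39% and 8.05% in OCI-Ly7. FASN, the fatty acid synthase, read 57.9 and 53.3 FPKM at day 0 in TMD8, 41.0 and 43.5 at day 3, then 25.0 and 26.4 at day 6. Its change was -1.08 ± 0.07 (limma, adjusted p = 0.00139; -0.73 after scaling). In OCI-Ly7 FASN read 6.28 and 5.96 FPKM at day 6, against 9.23 and 9.64 at day 0, a change of -0.55 ± 0.17 (adjusted p = 0.0872; -0.41 and 0.0869 after scaling). ACACA, the acetyl-CoA carboxylase, changed by -0.81 in TMD8 (adjusted p = 0.00301; -0.49 and 0.0113 after scaling) and by -0.37 in OCI-Ly7 (adjusted p = 0.119; -0.26 and 0.21 after scaling). ME1, the malic enzyme that yields NADPH, was listed at 0 in all 12 libraries. For FASN and ACACA the difference between the lines did not pass (-0.53 and -0.44, adjusted p = 0.0806 and 0.0922; -0.31 and -0.24 after scaling), so a larger fall in TMD8 was not shown.

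The desaturases SCD and FADS1 fell as given in both lines, and FADS2 fell in OCI-Ly7, the only line where it was tested. FADS1 in OCI-Ly7 did not pass after scaling. SCD read 141 and 132 FPKM at day 0 in TMD8, 107 and 99.2 at day 3, then 64.1 and 64.8 at day 6, with a change of -1.07 ± 0.07 (limma, adjusted p = 0.00136; -0.71 after scaling). OCI-Ly7 libraries read 31.7 and 36.9, then 30.8 and 28.4, then 16.6 and 17.2 FPKM, with a change of -0.98 ± 0.11 (adjusted p = 0.0345; -0.83 after scaling). The fall of SCD passed in both lines, and the changes of the lines differed by -0.09 ± 0.12 (adjusted p = 0.61; 0.12 and 0.406 after scaling).

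FADS1, the delta-5 desaturase of long polyunsaturated fatty acids, read 3.98 and 3.74 FPKM at day 6 in TMD8, against 10.3 and 9.47 at day 0 (limma, -1.16, adjusted p = 0.00167; -0.85 after scaling). The same days in OCI-Ly7 gave 3.96 and 5.0 FPKM at day 6, against 7.09 and 8.95 at day 0 (-0.72, adjusted p = 0.043; -0.59 and 0.0586 after scaling). Its neighbour FADS2, the delta-6 desaturase, stood in OCI-Ly7 at 8.50 and 10.2 FPKM at day 0, 6.80 and 6.02 at day 3, then 4.20 and 3.88 at day 6, a change of -1.04 ± 0.12 (adjusted p = 0.0345; -0.90 after scaling). In TMD8 FADS2 never passed 0.22 FPKM and was not tested. The 2 genes share under 5% of their exonic bases, on opposite strands. ELOVL6, an elongase of palmitate, read 1.94 and 2.05 FPKM at day 6 in TMD8, against 4.24 and 3.93 at day 0 (-0.77, adjusted p = 0.00282; -0.49 after scaling), and stood at most at 0.52 FPKM in OCI-Ly7. ELOVL5, an elongase of polyunsaturated chains, fell in TMD8 as given (-0.42, adjusted p = 0.00601) and not after scaling (-0.07).

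The genes of activation and lipid use split. ACSL3, an acyl-CoA synthetase of lipid droplets and the endoplasmic reticulum, read 55.1 and 52.0 FPKM at day 0 in TMD8, 39.5 and 37.6 at day 3, then 30.5 and 27.7 at day 6. It changed by -0.86 there (limma, adjusted p = 0.00167; -0.50 after scaling) and by -0.63 in OCI-Ly7 (adjusted p = 0.047; -0.50 and 0.0817 after scaling). LPIN1, a phosphatidate phosphatase that makes diacylglycerol, stood in OCI-Ly7 at 6.89 and 7.33 FPKM at day 0, 6.93 and 6.91 at day 3, then 11.6 and 12.3 at day 6. Days 0 and 3 lay between 6.89 and 7.33 FPKM and both day 6 libraries lay above them, with a change of 0.68 ± 0.09 (adjusted p = 0.0345; 0.81 after scaling).

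In TMD8 LPIN1 read 4.88 and 4.88 FPKM at day 6, against 6.29 and 6.09 at day 0, which passed as given (limma, -0.29, adjusted p = 0.0235) and was 0.018 after scaling. ACSL1, the acyl-CoA synthetase of long chains, read 28.9 and 28.5 FPKM at day 6 in OCI-Ly7, against 21.7 and 20.5 at day 0 (0.43, adjusted p = 0.0493; 0.58 after scaling), and in TMD8 21.9 and 21.8 at day 6, against 28.3 and 26.4 at day 0 (-0.31, adjusted p = 0.011; 0.038 after scaling). The differences between the lines were -0.97 ± 0.10 for LPIN1 and -0.74 ± 0.11 for ACSL1 (adjusted p = 0.00136 and 0.00433; -0.79 and -0.54 after scaling), and both held in all 12 fits without 1 library.

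**Figure D3:**
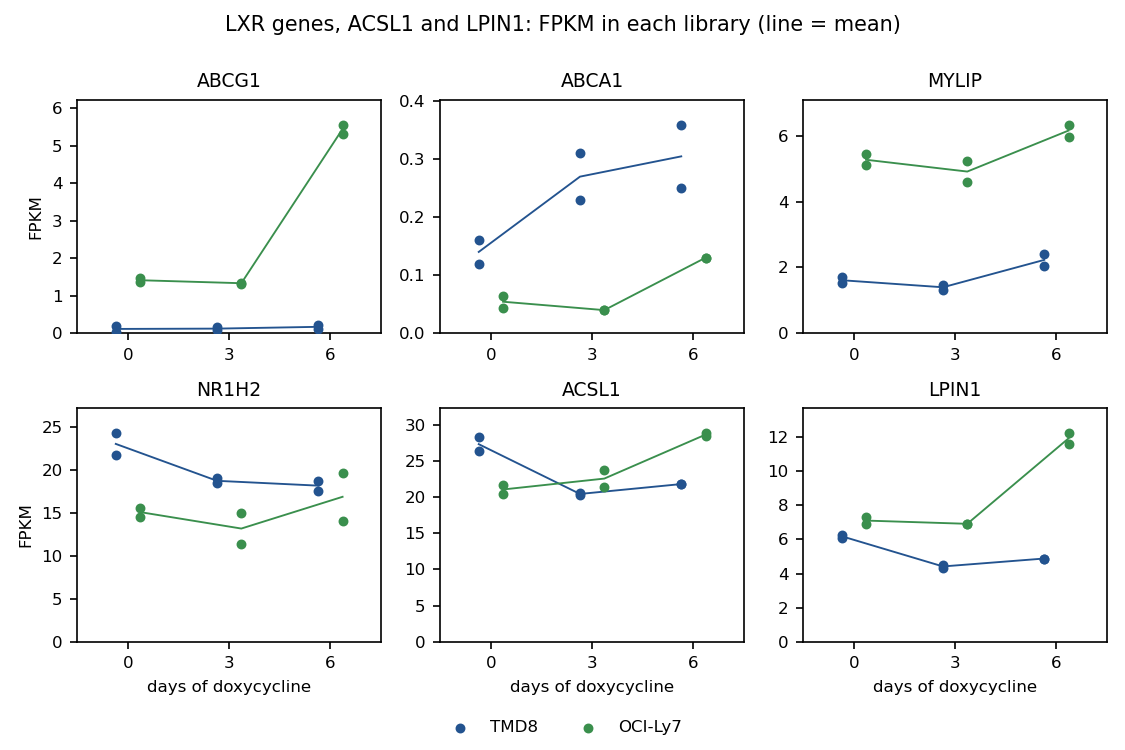
FPKM (linear axis, own scale for each gene) in each library against days of doxycycline for 4 LXR genes and for ACSL1 and LPIN1, TMD8 in blue and OCI-Ly7 in green; points are libraries and lines join the means of 2 libraries. ABCG1 reaches 5.57 and 5.33 FPKM at day 6 in OCI-Ly7, while ABCA1 stays under 0.4 FPKM in both lines.

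The LXR genes are taken apart from the rest, since they serve cholesterol export. ABCG1, an exporter of cholesterol to lipoproteins, stood in OCI-Ly7 at 1.35 and 1.47 FPKM at day 0, 1.32 and 1.34 at day 3, then 5.57 and 5.33 at day 6. The day 3 libraries lay just under those of day 0, and day 6 stood at 386% of the day 0 mean. The change was 1.42 ± 0.10 (limma, adjusted p = 0.0128; 1.52 and 0.0103 after scaling), and the largest rise of the members; it stayed between 1.38 and 1.46 in the 6 fits without 1 library, of which 2 passed. In TMD8 ABCG1 lay between 0.04 and 0.22 FPKM and was not tested. Without the filter on low values its difference between the lines was -1.34 (limma, adjusted p = 0.00219). The rise in OCI-Ly7 did not pass in that fit (adjusted p = 0.0552). The TMD8 change was 0.074 there, at levels where the pseudocount holds a change near 0. That difference therefore mostly restates the OCI-Ly7 rise.

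ABCA1, the other LXR-driven exporter, was low throughout. It read 0.36 and 0.25 FPKM at day 6 in TMD8, against 0.12 and 0.16 at day 0, and OCI-Ly7 had 0.13 and 0.13 at day 6, against 0.06 and 0.04 at day 0. Day 6 lay above day 0 in both lines, at levels too low for the filter of the test, and without that filter neither passed (limma, adjusted p = 0.144 and 0.0907). MYLIP, a ubiquitin ligase induced by LXR, read 1.70 and 1.52 FPKM at day 0 in TMD8, 1.32 and 1.47 at day 3, then 2.41 and 2.05 at day 6. On those days OCI-Ly7 read 5.45 and 5.12, then 5.25 and 4.60, then 6.36 and 5.99 FPKM. Both lines had their highest values at day 6, with changes of 0.31 and 0.19 that did not pass as given (adjusted p = 0.0526 and 0.246) and of 0.54 and 0.32 after median-ratio scaling that did (adjusted p = 0.0234 and 0.049).

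Of the receptor genes NR1H2 alone was tested, and no call held under both scalings. NR1H2, which encodes LXR-beta, read 24.3 and 21.8 FPKM at day 0 in TMD8, 19.0 and 18.5 at day 3, then 18.8 and 17.6 at day 6, a change of -0.33 (limma, adjusted p = 0.0174) that was 0.023 after scaling. The OCI-Ly7 libraries gave 14.6 and 15.6, then 14.99 and 11.4, then 19.7 and 14.1 FPKM, and did not pass (0.13, adjusted p = 0.658; 0.28 and 0.266 after scaling). NR1H3, which encodes LXR-alpha, lay under the filter in both lines, at 0.14 and 0.35 FPKM at day 6 against 0.54 and 0.53 at day 0 in TMD8, and at 0.95 and 0.80 against 0.94 and 0.68 in OCI-Ly7. NR1H2 was thus the LXR receptor transcript with the higher level in all 12 libraries.

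The lines were compared over the 36 members tested in both. The day 6 change, TMD8 minus OCI-Ly7, was lower in TMD8 for 6 members (SCAP, MVD, TM7SF2, AACS, ACSL1 and LPIN1) and higher for 0, while 18.4% of all genes were lower and 6.3% higher. After median-ratio scaling the same 6 were lower, against 14.1% of all genes, and ACAT2 and IDI1 were higher (0.66 and 0.37, limma, adjusted p = 0.00951 and 0.0422), against 19%. These shares lie near or below those of all genes, so the members as a set were not marked out by a difference between the lines. For the other members the difference did not pass, with a standard error as given from 0.11 to 0.23 for all but HMGCS1. This does not show that they changed alike. Without either day 3 library of OCI-Ly7 10 members passed in place of 6, as given.

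**Figure D4:**
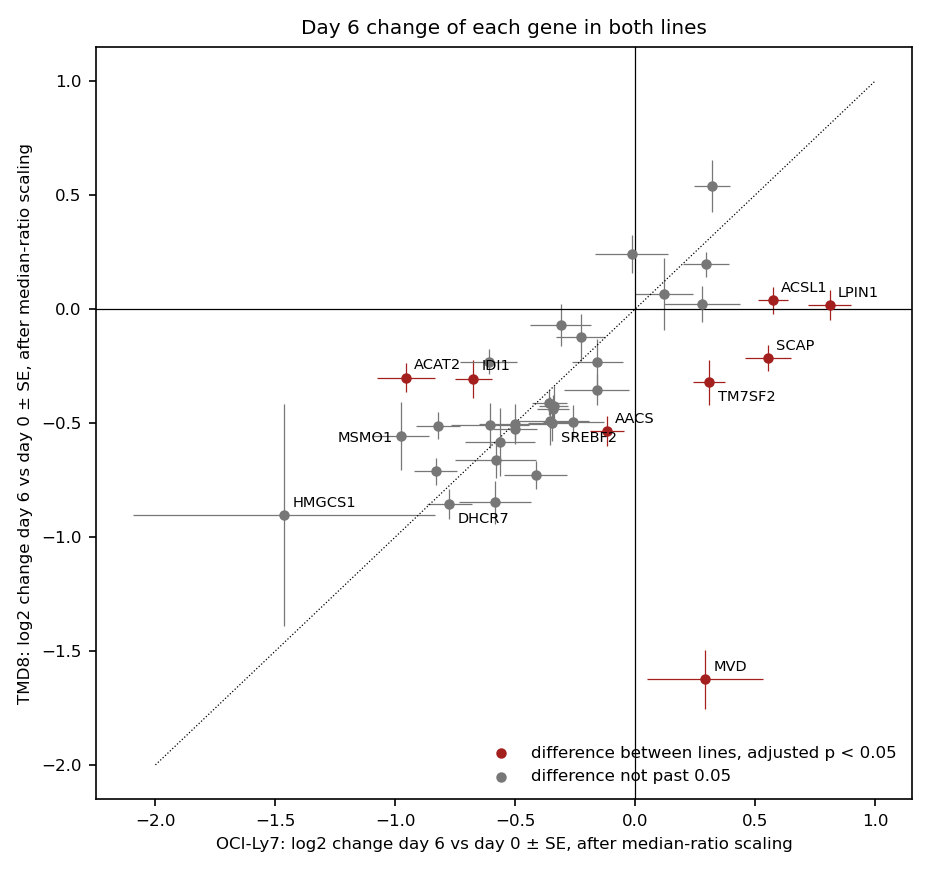
Day 6 change of each of the 36 members tested in both lines, in TMD8 (vertical axis) against OCI-Ly7 (horizontal axis), in log2(FPKM + 1) after median-ratio scaling, with standard errors; red points have a difference between the lines with an adjusted p below 0.05, and the dotted line marks equal change. MVD lies far below the dotted line, SCAP, TM7SF2, ACSL1 and LPIN1 are negative or near 0 in TMD8 and positive in OCI-Ly7, and ACAT2 and IDI1 lie above the line.

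The untreated lines differed in their levels. At day 0 both TMD8 libraries lay above both OCI-Ly7 libraries for 29 of the 36 members (44.2% of all genes did) and below them for 4 (42.9% of all genes), namely SCAP, AACS, LPIN1 and MYLIP. The median ratio of TMD8 to OCI-Ly7 was 2.11 for the members and 1.01 for all genes tested in both lines. It was 19.6 for LSS, 14.5 for DHCR7, 6.64 for ACSL3 and 4.57 for SREBF2. The tables of the lines were made separately, so these ratios are given as a description, with no test.

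Other genes of the same pathways were read beside the shares of all genes tested at day 6. Their lists hold none of the 43 and were also chosen with earlier results of these data known. In TMD8 51.7% of all genes were lower as given and 13.5% after median-ratio scaling, with 15.4% higher after scaling. In OCI-Ly7 9.39% were lower as given and 8.05% after scaling, with 6.71% higher after scaling. In TMD8 all 7 genes of fatty acid oxidation (100%) were lower as given and 5 (71.4%) after scaling. In OCI-Ly7 2 of these 7, CPT2 and ACADM, were lower as given (28.6%), and after scaling ACADM was lower and CPT1A and ACADVL were higher. ACADVL, the very long chain acyl-CoA dehydrogenase, read 21.1 and 22.6 FPKM at day 6 in TMD8, against 57.3 and 53.9 at day 0 (limma, -0.95 after scaling, adjusted p = 0.00239), and in OCI-Ly7 77.2 and 81.7 at day 6, against 67.4 and 65.8 at day 0 (0.40 after scaling, adjusted p = 0.0452).

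Of 7 genes of sterol transport and storage, 7 (100%) were lower in TMD8 as given and 4 (57.1%) after scaling. In OCI-Ly7 0 of these passed as given, with 4 at an unadjusted p below 0.05 (limma), and NPC2, which binds cholesterol in lysosomes, alone passed after scaling, as higher. Of 8 genes of the isoprenoid branches, 5 (62.5%) were lower in TMD8 as given and 2 (25%) after scaling, and 2 (25%) were lower in OCI-Ly7 under either scaling. Among them GGPS1, which makes geranylgeranyl diphosphate, read 1.66 and 1.76 FPKM at day 6 in TMD8, against 4.36 and 3.95 at day 0. The 4 genes of SREBP cleavage and trafficking were all lower in TMD8 as given and 1 of them, SEC23A, after scaling (25%); 2 were lower in OCI-Ly7 (50%) and 0 after scaling, with 3 then at an unadjusted p below 0.05. Of the other genes of fatty acid and lipid synthesis, 6 of 9 (66.7%) were lower in TMD8 as given and 1 (11.1%) after scaling, with ACSL5 higher after scaling, and in OCI-Ly7 2 of 10 (20%) were lower as given and 1 (10%) after scaling. For the isoprenoid branches in TMD8 as given and this last list in TMD8 and in OCI-Ly7 after scaling, the shares lay near those of all genes; with lists of 4 to 11 genes and no test of a list, nothing is read from the others.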

How the data were processed

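The Illumina TruSeq RNA kit was used for the libraries, per the labels' protocols. HISAT (alignment), StringTie (assembly) and hg19 are named in the submitters' processing notes, without versions, and the strand setting is not given in the sources used here. FPKM per gene symbol was deposited by the authors in 1 table per line. Days 0, 3 and 6 follow the titles, characteristics and design text; the treatment protocol names other days. Nothing says that duplicates came from separate cultures, so p-values measure only the spread between these libraries, which may be technical.

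Within a line, limma 3.58.1 (R 4.3.3) with trend was fitted to log2(FPKM + 1) where the mean FPKM over its 6 libraries reached 1 (10456 genes in TMD8, 11016 in OCI-Ly7). All 3 days shared an estimate of the spread (3 residual degrees of freedom). Benjamini-Hochberg adjustment ran over every gene tested, at 0.05. The lines were compared in a fit of 12 libraries (6 residual degrees of freedom, 9688 genes). The pseudocount understates changes of low genes. The fits were tested on simulated data that held no shift shared by all genes, so that test does not cover the shift of the median gene seen here.

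Relative depth was estimated from the ratios of small FPKM values between libraries of a line; set against its own first untreated library, it ran from 0.543 to 1.18 in TMD8 and from 0.768 to 1.3 in OCI-Ly7. Library values, for some genes at days 0 and 6 alone or as a range, were given for the SREBP regulators and the LXR genes. They were also given, per line, for up to 12 members with the largest day 6 change that passed under both scalings without overlap. Other members with library values were picked after their values were seen. The members and lists were chosen with earlier results of these data known. Alternatives were median-ratio scaling, an equal sum per library, a pseudocount of 0.1, no filter, a replicate block and the omission of single libraries. Gene overlap and pseudogenes came from GENCODE v29 on GRCh38, a later build than hg19.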

Additional observations from a re-analysis of the deposited data

Results flagged for a closer look

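In 6 of 36 members (16.7%) the day 6 change differed between the lines by a test of the difference itself (TMD8 minus OCI-Ly7, limma over the 12 libraries, adjusted p below 0.05). All were lower in TMD8, where 18.4% of all genes were lower and 6.3% higher. The count therefore does not mark out the members as a set. MVD differed by -2.12 on the log2 scale, LPIN1 by -0.97, SCAP by -0.96, TM7SF2 by -0.82, ACSL1 by -0.74 and AACS by -0.59. The adjusted p ran from 0.00136 for LPIN1 to 0.015 for AACS. MVD and AACS were lower at day 6 in TMD8 and did not pass in OCI-Ly7. SCAP was lower in TMD8 under both scalings and TM7SF2 as given alone, and both were higher in OCI-Ly7 after median-ratio scaling alone. ACSL1 and LPIN1 were higher in OCI-Ly7 under both scalings and lower in TMD8 as given alone. All 6 differences passed after median-ratio scaling as well, and all but that of AACS passed whichever of the 12 libraries was left out; for AACS the highest adjusted p was then 0.0518.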

How the results depend on the processing

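In TMD8 at day 6 the 33 calls, all lower, became 27 after median-ratio scaling. Those 27 were 26 of the 33 and MYLIP, now higher, while TM7SF2, EBP, SC5D, ELOVL5, ACSL1, LPIN1 and NR1H2 lost the call. Without 1 library there were 30 to 34. The other counts did not all hold, and the cause was not tested. In TMD8 at day 3 the 29 calls became 0 after median-ratio scaling, 0 at an equal sum, 7 without the filter and 0 with a replicate block, and 0 to 31 without 1 library. For day 6 against day 3 the 20 became 3 without the filter, 3 with the block and 0 to 12 without 1 library. In OCI-Ly7 the 19 calls of day 6 became 0 without the filter, 12 with the block and 0 to 18 without 1 library. For day 6 against day 3 the 1 call became 14 after median-ratio scaling, 8 at an equal sum, 0 without the filter and 0 to 1 without 1 library, and at day 3 there were 0 to 1. The 6 differences between lines became 10 without the filter and 5 to 10 without 1 library. Libraries of the same number share only that number, with correlations of their deviations from -0.147 to 0.13, so no pairing was assumed.

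Of 160 changes of single genes, 111 kept direction and call after median-ratio scaling, 15 gained and 21 lost the call, and 13 changed sign, none with a call after scaling. After scaling these read 0.087 for MSMO1 at day 3 and, at day 6, 0.066 for SREBF1, 0.20 for INSIG2, 0.24 for PMVK, 0.038 for ACSL1, 0.018 for LPIN1 and 0.023 for NR1H2 in TMD8. In OCI-Ly7 they read 0.081 for LPIN1 and 0.026 for ABCG1 at day 3 (0.083 and 0.027 at an equal sum) and 0.12 for SREBF1 at day 6 (0.077 at an equal sum). For the difference between lines they read 0.10 for HSD17B7, 0.10 for EBP and 0.12 for SCD, and 0.12 for LSS at a pseudocount of 0.1. Without 1 library some uncalled values changed sign: in OCI-Ly7 LPIN1 at day 3 (-0.072 to 0.006), and at day 6 SREBF1 (-0.16 to 0.14), PMVK (-0.33 to 0.011), MVD (-0.06 to 0.35) and NR1H2 (-0.094 to 0.36); between lines HMGCS1 (-0.70 to 1.33), PMVK (-0.12 to 0.22), HSD17B7 (-0.22 to 0.036), SCD (-0.20 to 0.014) and ELOVL5 (-0.10 to 0.14).

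Read depth is not given in the sources used here, and later libraries were shallower, so values under 1 FPKM rest on few fragments. With 2 libraries a group, a change that missed the threshold was not shown to be absent.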
